A study of Homo sapiens with 3 samples.

Results

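The genes described here are 10 members of the SLC2A family, which encodes the facilitative glucose transporters (GLUT proteins). They were taken by symbol from GENCODE release 44 and found by Ensembl identifier in a table of 62754 genes, and they are SLC2A1, SLC2A2, SLC2A3, SLC2A4, SLC2A6, SLC2A8, SLC2A10, SLC2A12, SLC2A13 and SLC2A14. RNA was measured in 3 replicates of 1 group, MCF10A cells that carry the empty vector of a doxycycline-inducible retroviral expression system (Retro-X Tet-One), were selected with puromycin and were harvested with no treatment and no doxycycline. The MCF10A line comes from human breast epithelium, grows without limit in culture and does not form tumours. The methods of the study place the RNA sampling 27 h after the cells were seeded. All 3 replicates carry the same empty vector, so no group can be compared with another. The sample titles and library names give no batch and do not say whether the replicates are separate cultures. The values are TPM, a level per length of transcript that sums to 1000000 in each replicate and that can be set side by side between genes. With the lengths of GENCODE release 44 the values returned whole reads, 15273329, 15446347 and 11166546 in replicates 1, 2 and 3.

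Facilitative transporters let hexoses cross a membrane down their concentration gradient, without sodium and without ATP, and uptake is followed by phosphorylation by a hexokinase, which keeps the sugar in the cell. The family falls into sequence classes. Class I holds SLC2A1 (GLUT1), which serves basal glucose uptake in most cells, SLC2A2 (GLUT2) of liver and pancreatic beta cells, SLC2A3 (GLUT3) of neurons, SLC2A4 (GLUT4), which insulin moves to the surface of muscle and fat cells, and SLC2A14 (GLUT14), a duplicate of SLC2A3. Class III holds SLC2A6, SLC2A8, SLC2A10, SLC2A12 and SLC2A13, several of which reside on membranes inside the cell. The members are all genes of these classes, and the 4 genes of class II (SLC2A5, SLC2A7, SLC2A9 and SLC2A11) are not among them.

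In MCF10A cells the transcripts of 5 of the 10 members were at or above 1 TPM, the level above which the study took a gene as expressed. These were SLC2A1 and SLC2A3 of class I and SLC2A8, SLC2A13 and SLC2A6 of class III. Of all 20046 protein-coding genes matched, 56.7% were at or above 1 TPM by the mean of the replicates, so the share among the members is near that of protein-coding genes in general. The other 5 members did not exceed 0.282 TPM in any replicate and had 23 reads in all. No member had replicates on both sides of 1 TPM. The median of the members was 1.42 TPM, against 3.75 TPM over protein-coding genes. This median falls in a gap, since no member had a mean between 0.149 and 2.68 TPM.

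**Figure D1:**
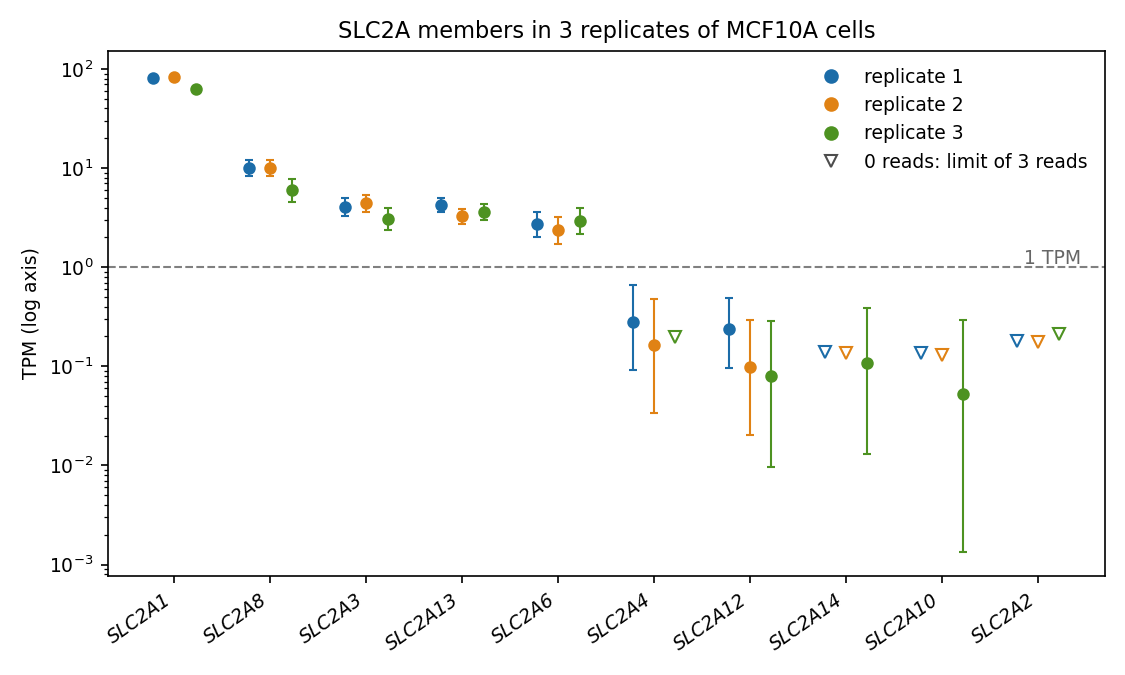
TPM (log axis) of each SLC2A member in replicates 1, 2 and 3, with 95% exact Poisson intervals of the read count as bars, and with open triangles at the limit of 3 reads where a replicate had 0 reads. SLC2A1 lies between 62.9 and 83.5 TPM, 4 members lie between 2.38 and 10.1 TPM, and 5 members lie at or below 0.282 TPM.

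SLC2A1 (ENSG00000117394, chromosome 1 of hg38 from 42925353 to 42958893 on the minus strand) was the member with the highest level in every replicate. It was measured at 80.5, 83.5 and 62.9 TPM in replicates 1, 2 and 3, a mean of 75.6 ± 11.2 TPM (SD, n = 3), from 1432, 1526 and 951 reads. Replicates 1 and 2 lay close together and replicate 3 was lower than both. By its mean SLC2A1 was at rank 2179 of the protein-coding genes, above 89.1% of them. The protein-coding genes nearest to it in mean level over the 3 replicates were CDCA7L (75.7 ± 10.9 TPM) and BTBD2 (75.7 ± 13.9 TPM) just above it, and DCAF12 (75.6 ± 7.49 TPM) and SRI (75.6 ± 2.90 TPM) just below it (SD, n = 3 each). These 4 were picked for their likeness in mean level, so their closeness to SLC2A1 follows from the choice and is not a result. Of its canonical transcript, 14.7% lies opposite ENSG00000288955, a long non-coding RNA with 0 reads in every replicate.

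**Figure D2:**
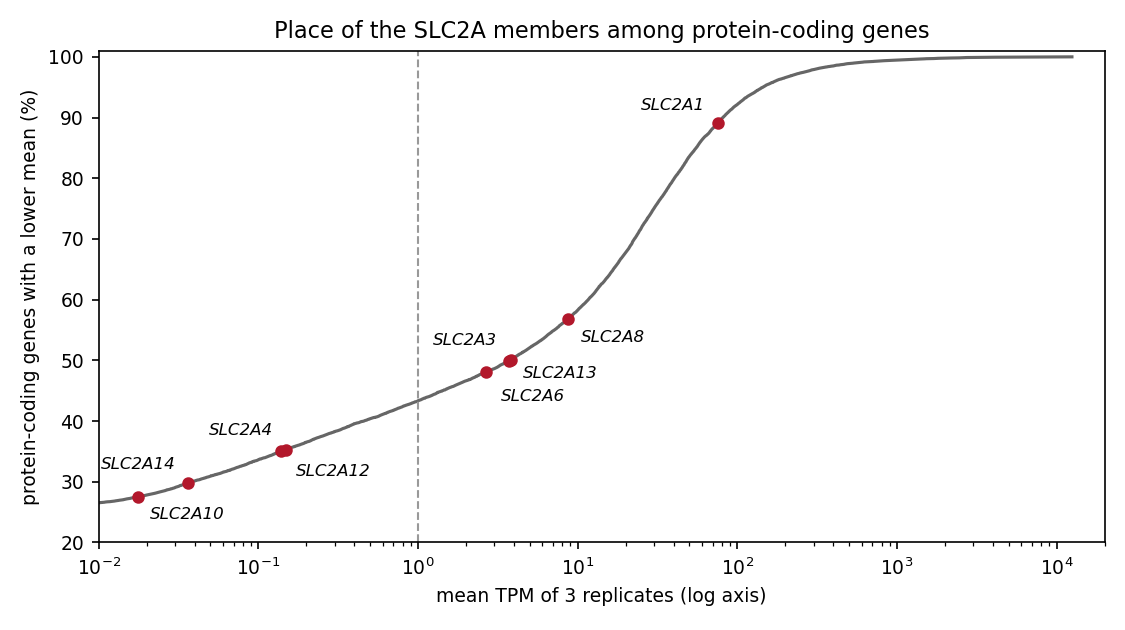
Percentage of protein-coding genes with a lower mean (vertical axis, starting at 20%) against the mean TPM of 3 replicates (log axis), as a grey line, with the 9 members above 0 as red points and the 1 TPM cutoff as a dashed line. SLC2A1 is above 89.1% of protein-coding genes, SLC2A8 above 56.8%, and SLC2A3, SLC2A13 and SLC2A6 lie between 48.1% and 50.1%.

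SLC2A3 and SLC2A14 lie close together on the minus strand of chromosome 12 of hg38, SLC2A14 (ENSG00000173262) from 7812512 to 7891148 and SLC2A3 (ENSG00000059804) from 7919230 to 8019007. Their coding sequences are nearly the same, and this bears on how reads can be assigned. Over 1488 aligned bases of the canonical coding sequences, without the stop codon, they differ at 48, an identity of 96.8%, and the longest run without a difference is 137 bases. No other pair of members came above 69.1%, the value of SLC2A1 and SLC2A4. Within the coding sequences, the only parts aligned, the stretch of 120 bases that differs most is printed here for both genes. It runs from base 552 to 671 of the SLC2A3 coding sequence and from 555 to 674 of that of SLC2A14, counted from 1 at the start codon, in GENCODE release 44. Capitals mark the 10 differences.
SLC2A3: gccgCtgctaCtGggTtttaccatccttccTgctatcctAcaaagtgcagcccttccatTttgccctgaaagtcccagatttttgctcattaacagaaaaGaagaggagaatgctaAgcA
SLC2A14: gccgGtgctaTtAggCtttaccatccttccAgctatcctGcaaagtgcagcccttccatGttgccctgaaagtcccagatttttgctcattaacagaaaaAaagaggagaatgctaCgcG

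SLC2A3 was measured at 4.05, 4.40 and 3.09 TPM from 94, 105 and 61 reads, a mean of 3.85 ± 0.679 TPM (SD, n = 3). It lay near the middle of protein-coding genes, above 50.1% of them, and replicate 3 was again the lowest. SLC2A14 had 0, 0 and 2 reads. Over the 3 replicates this is 0.0321 TPM with a 95% exact Poisson interval from 0.00389 to 0.116 TPM. Of all runs of 50 bases in the canonical transcript of SLC2A14, 26.8% occur exactly in another annotated gene, almost all of them in SLC2A3, and 73.2% do not. For SLC2A3, 24.7% occur in another gene. How reads that match both genes were counted is not given in the sources used here, so the level of either gene is uncertain by such reads. With both summed, SLC2A1 kept its place as the highest member and SLC2A8 as the next. The sum adds only the 2 reads of SLC2A14, so it is no test of how shared reads were counted.

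SLC2A8 (ENSG00000136856, chromosome 9 from 127397138 to 127408424, plus strand) encodes GLUT8, a transporter held on membranes inside the cell. It was measured at 10.1, 10.1 and 5.95 TPM from 114, 117 and 57 reads, with a mean of 8.73 ± 2.41 TPM (SD, n = 3). Replicates 1 and 2 were nearly equal, and replicate 3 was well below both. SLC2A6 (ENSG00000160326, chromosome 9 from 133471094 to 133479127, minus strand) encodes GLUT6, a transporter found on lysosomes. It was measured at 2.73, 2.38 and 2.94 TPM from 49, 44 and 45 reads, with a mean of 2.68 ± 0.283 TPM (SD, n = 3). Unlike SLC2A1, SLC2A3 and SLC2A8, it was highest in replicate 3. The coding sequences of SLC2A6 and SLC2A8 are 61.8% identical over 1416 aligned bases. The longest transcript of SLC2A6 has 3409 bases, by the length that the table rests on, and its canonical transcript 2491. With canonical lengths for all genes its mean was 3.01 TPM, above the deposited value, while the means of the other 4 members over 1 TPM were below theirs, among them SLC2A3 at 3.62 TPM and SLC2A13 at 3.02 TPM.

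SLC2A13 (ENSG00000151229, chromosome 12 from 39755025 to 40106089, minus strand) encodes HMIT, which carries myo-inositol together with protons rather than glucose. It was measured at 4.24, 3.25 and 3.59 TPM from 161, 127 and 116 reads, with a mean of 3.69 ± 0.501 TPM (SD, n = 3). Replicate 1 was the highest and replicate 2 the lowest. Its sodium-coupled counterpart SLC5A3 (SMIT1) was measured at 26.3, 25.6 and 22.3 TPM. SLC5A3 was above SLC2A13 in every replicate, by a log2 ratio of 2.75 ± 0.19 (SD, n = 3), or 6.73-fold. Exons of a neighbouring gene on the same strand cover 2.29% of the SLC5A3 transcript.

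The other 5 members were at the edge of what this depth shows. SLC2A4 (ENSG00000181856, chromosome 17) was measured at 0.282, 0.165 and 0 TPM from 5, 3 and 0 reads, where 0 reads in replicate 3 allow up to 0.199 TPM by the limit of 3 reads. SLC2A12 (ENSG00000146411, chromosome 6), which encodes GLUT12, had 0.239, 0.0995 and 0.0801 TPM from 7, 3 and 2 reads. Of its canonical transcript 51.2% lies opposite TBPL1, which was measured at 13.8, 12.3 and 13.1 TPM, and whether strand was used in counting is not given in the sources used here. SLC2A10 (ENSG00000197496, chromosome 20), which encodes GLUT10, the transporter mutated in arterial tortuosity syndrome, had 0, 0 and 1 read, which over the 3 replicates allows up to 0.0870 TPM by the 95% exact Poisson interval. SLC2A2 (ENSG00000163581, chromosome 3) had 0 reads in every replicate, which over the 3 replicates allows up to 0.0767 TPM by the 95% exact Poisson interval. In each replicate alone the limit of 3 reads allows up to 0.180, 0.175 and 0.211 TPM. Against the limits of 3 reads the measured level of SLC2A1 was 448-, 478- and 298-fold higher in replicates 1, 2 and 3. A count of 0 reads in all 3 replicates was found for 26.2% of protein-coding genes. These intervals and limits cover counting error only. On their own strand, no exon of another gene overlaps the canonical transcripts of these 5 members.

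The cells were checked against markers of breast epithelium and of the tissues these transporters are known for. Of 6 markers, KRT5, KRT14, KRT17 and TP63 belong to basal breast epithelium, and EPCAM and CDH1 to epithelium in general. All 6 were above 1 TPM, between 14.6 TPM for EPCAM and 6612 TPM for KRT5. Of 30 markers of 10 other cell types, luminal breast among them, 4 were at or above 1 TPM by the mean. These were DCN of fibroblasts (9.05 TPM), CD14 of leukocytes (1.96 TPM), PECAM1 of endothelium (1.77 TPM) and FOXA1 of luminal breast (1.11 TPM). FOXA1 had 1.19, 0.790 and 1.34 TPM, with replicate 2 below 1 TPM. The other luminal markers, ESR1 and PGR, had 3 reads and 1 read in all. The markers of hepatocytes, where SLC2A2 is known, summed to at most 0.206 TPM in any replicate, with ALB and TTR at 0 reads. Of the beta cell markers, INS had 0 reads and PDX1 was measured at 0.0729, 0.355 and 0 TPM from 1, 5 and 0 reads. Those of muscle, where SLC2A4 is known, had 0 reads, and those of adipocytes summed to between 0.153 and 0.261 TPM, with ADIPOQ and LEP at 0 reads. Those of neurons, where SLC2A3 is known, summed to between 0.181 and 0.308 TPM, with SNAP25 and RBFOX3 at 0 reads. In bulk RNA, fewer cells that express a gene and less RNA per cell cannot be told apart.

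In the order of the means, SLC2A1 was followed by SLC2A8, SLC2A3, SLC2A13 and SLC2A6. SLC2A1 was above SLC2A8 by a log2 ratio of TPM of 2.99, 3.04 and 3.40 in replicates 1, 2 and 3, a mean of 3.15 ± 0.22 (SD, n = 3), or 8.85-fold. It was 19.7-fold above SLC2A3, with a range over replicates from 19.0 to 20.4, and 28.1-fold above SLC2A6. SLC2A8 was above SLC2A3 by a log2 ratio of 1.16 ± 0.19 (SD, n = 3), and their ranges over replicates did not overlap. SLC2A3 and SLC2A13 did not differ beyond their spread, since SLC2A3 was the higher of both in 1 of 3 replicates and the log2 ratio was 0.05 ± 0.34 (SD, n = 3). SLC2A13 was above SLC2A6 in 3 of 3 replicates without overlap, by 0.46 ± 0.18 on the log2 scale (SD, n = 3). With canonical lengths this difference was nearly gone, at means of 3.02 and 3.01 TPM. The ranges of neighbours among SLC2A4, SLC2A12, SLC2A14, SLC2A10 and SLC2A2 overlapped, so no order is read among them. With 3 replicates, an exact paired permutation test of such a ratio cannot go below p = 0.25 (two-sided), so no test of the order was run.

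Summed over the members, the level was 102, 104 and 78.7 TPM in replicates 1, 2 and 3. SLC2A1 held 78.8%, 80.4% and 79.9% of that sum, a mean of 79.7% ± 0.798 (SD, n = 3). Its own level varied more between replicates, but SLC2A1 makes up most of the sum, so its share varies less by construction. SLC2A8 held 9.07% ± 1.31, SLC2A3 4.04% ± 0.169, SLC2A13 3.94% ± 0.736 and SLC2A6 2.90% ± 0.752 (SD, n = 3 each). This share holds for the 10 members only. Among the 4 genes of class II, SLC2A9 (ENSG00000109667, chromosome 4), which carries urate as well as hexoses, was measured at 39.5, 44.2 and 32.8 TPM, a mean of 38.8 ± 5.69 TPM (SD, n = 3) from 1292 reads. SLC2A1 was above SLC2A9 in every replicate by a log2 ratio of 0.96 ± 0.06 (SD, n = 3), or 1.95-fold, and SLC2A9 was above SLC2A8. SLC2A11 was measured at 1.51 ± 0.274 TPM (SD, n = 3), SLC2A5, the fructose transporter of the intestine, had 8 reads in all, and SLC2A7 had 0 reads. Over all 14 genes SLC2A1 held 55.8% ± 0.396, SLC2A9 28.7% ± 0.971 and SLC2A8 6.36% ± 0.965 of the summed TPM (SD, n = 3 each). By class this was 58.8% ± 0.467 for class I, 29.9% ± 1.19 for class II and 11.3% ± 0.785 for class III (SD, n = 3 each).

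The reads of each gene were also set against the same TPM in all replicates (chi-square, p adjusted by Benjamini-Hochberg over 15802 genes with 15 reads or more in all). The 5 members over 1 TPM had that many reads, as had 61.7% of protein-coding genes. The test compares these libraries by counting error alone and not conditions. By this chi-square test 54.3% of all genes were called, and 2 of the 5 members, SLC2A1 (adjusted p = 4.08e-11) and SLC2A8 (adjusted p = 0.00355). The adjusted p of the chi-square test was 0.128 for SLC2A3, 0.118 for SLC2A13 and 0.668 for SLC2A6, and these genes had from 138 to 404 reads where SLC2A1 had 3909. Replicate 3 was the lowest for 3 of the 5 members, for 70.6% of all genes with 15 reads or more, and for 82.8% of genes whose mean was 10 TPM or more. Its log2 ratio to the mean of replicates 1 and 2 was -0.38 for SLC2A1, -0.77 for SLC2A8, -0.45 for SLC2A3, -0.06 for SLC2A13 and 0.20 for SLC2A6, against a median of -0.25 over all genes tested. Each replicate was then scaled by its median ratio over genes of 10 TPM or more. The chi-square test called 31.2% of all genes after this scaling and 1 member, SLC2A1 (adjusted p = 0.0440), while SLC2A8 had an adjusted p of 0.116. Without replicate 3 the chi-square test called 0 of 5 members and 21.3% of all genes tested, with an adjusted p of 0.534 for SLC2A1 and 0.995 for SLC2A8. With replicate 3 against replicate 1 or against replicate 2 it called 46.7% of all genes in each, and SLC2A1 (adjusted p = 2.61e-08 and 6.41e-11) and SLC2A8 (adjusted p = 0.00288 and 0.00290) in both by the chi-square test.

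**Figure D3:**
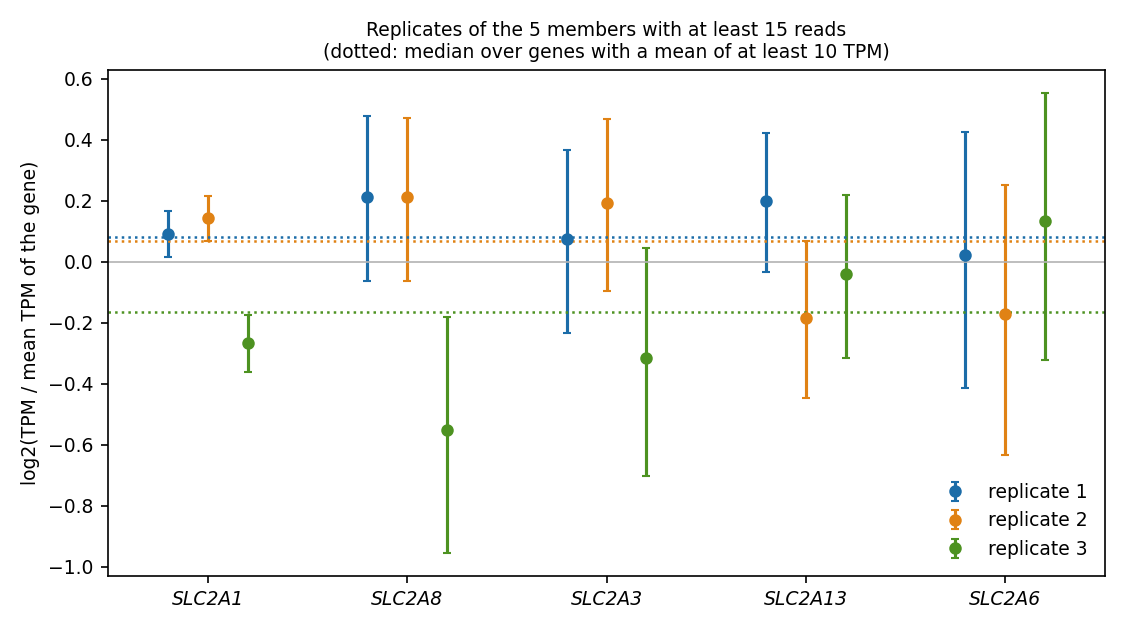
Log2 ratio of TPM in each replicate to the mean of the gene, for the 5 members with at least 15 reads, with 95% exact Poisson intervals as bars and dotted lines at the median of each replicate over genes of 10 TPM or more. SLC2A1, SLC2A8 and SLC2A3 are lowest in replicate 3, SLC2A13 is lowest in replicate 2, and SLC2A6 is highest in replicate 3.

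The promoters of the members were read for CG pairs, a property that the choice of members did not use. RefSeq promoters of 300 bases (250 before and 50 after the start, GRCh38.p14) were found for 8 of the 10 members, all but SLC2A3 and SLC2A4. The 4 members at or above 1 TPM had between 29 and 33 CG pairs, with 30 for SLC2A1 and SLC2A8. Among the 4 members below 1 TPM the number was 2 for SLC2A2, 5 for SLC2A12 and 31 each for SLC2A10 and SLC2A14. Over 21566 promoters of 15324 protein-coding genes, the median was 25 for genes at or above 1 TPM and 9 for genes below it. SLC2A10 and SLC2A14 were thus near 0 TPM with as many CG pairs as SLC2A1, and SLC2A9 of class II was at 38.8 TPM with 3 CG pairs in each of its promoters. The 250 bases before the start are printed for the member with the highest level and for the member with 0 reads, from chr1:42958869-42959118 and chr3:171026721-171026970, both on the minus strand and with CG pairs in capitals. They hold 24 and 2 CG pairs.
SLC2A1: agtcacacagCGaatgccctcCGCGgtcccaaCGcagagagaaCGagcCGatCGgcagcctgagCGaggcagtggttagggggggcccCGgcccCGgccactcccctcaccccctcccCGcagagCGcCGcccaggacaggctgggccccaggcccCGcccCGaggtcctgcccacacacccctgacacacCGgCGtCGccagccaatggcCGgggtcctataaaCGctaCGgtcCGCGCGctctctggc
SLC2A2: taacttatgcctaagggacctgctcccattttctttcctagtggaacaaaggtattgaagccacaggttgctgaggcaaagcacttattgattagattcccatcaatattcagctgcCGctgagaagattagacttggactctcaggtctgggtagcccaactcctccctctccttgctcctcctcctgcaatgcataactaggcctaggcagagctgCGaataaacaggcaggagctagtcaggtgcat

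**Figure D4:**
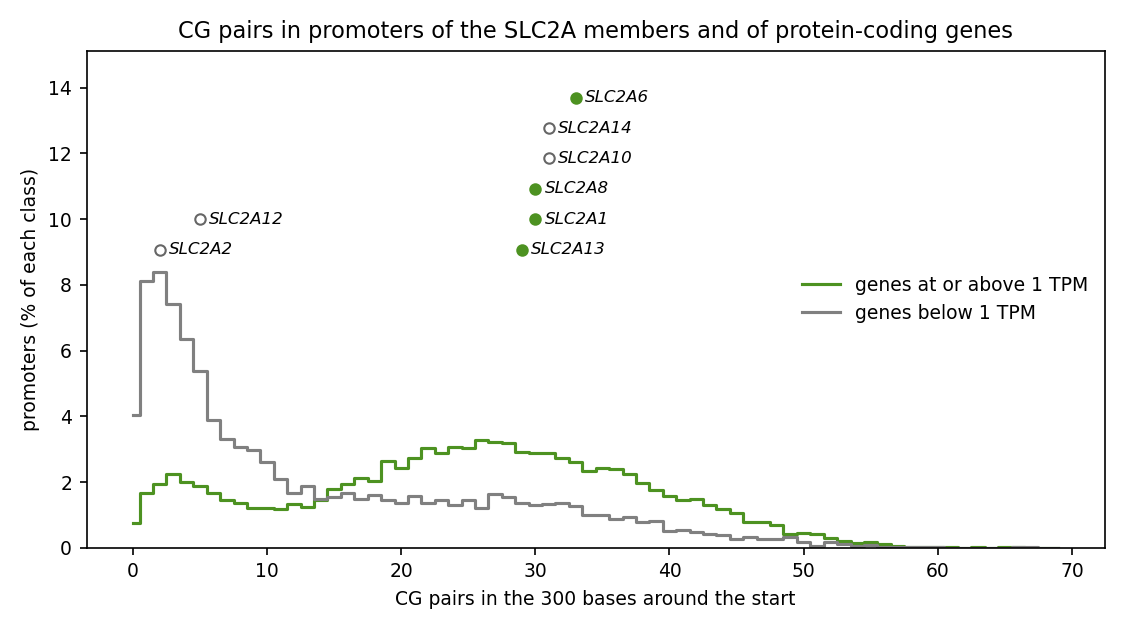
Number of CG pairs in promoters of 300 bases (horizontal axis) against the percentage of promoters, drawn as a green line for protein-coding genes at or above 1 TPM and as a grey line for those below it. Points mark 8 members, filled in green at or above 1 TPM and open below it, and their height has no meaning. SLC2A2 and SLC2A12 lie at 2 and 5 CG pairs and the other 6 members between 29 and 33.

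Around the transporters, 49 genes in 5 lists were read, and 38 of them were at or above 1 TPM, against 56.7% of protein-coding genes. The lists were chosen with earlier results of these data known, so the counts describe the listed genes only. Of 8 other sugar carriers 2 were at or above it, SLC50A1 at 57.3 ± 8.11 TPM, the human member of the SWEET sugar transporter family, and SLC45A4 at 7.38 ± 0.750 TPM (SD, n = 3 each). The sodium-glucose cotransporters SLC5A1 and SLC5A9 had 0 reads and SLC5A2 had 2, 0 and 0 reads. Of 8 kinases that phosphorylate sugars 6 were at or above 1 TPM. HK1 at 216 ± 24.6 TPM was above HK2 at 76.3 ± 8.05 TPM in every replicate (SD, n = 3 each), both hexokinases that act on glucose after its uptake. HKDC1, a further hexokinase, had 0.940, 1.68 and 1.29 TPM from 18, 33 and 21 reads, with 1 replicate below 1 TPM.

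All 16 genes of transporter trafficking and turnover were at or above 1 TPM, between 4.82 and 144 TPM, among them RAB10 at 144 ± 8.77 TPM, a small GTPase of GLUT4 vesicles, and VAMP3 at 109.6 ± 11.4 TPM, a vesicle SNARE (SD, n = 3 each). Of the 11 transcription factors known for glucose transporter genes 10 were at or above 1 TPM, with MYC at 406 ± 72.6 TPM and HIF1A, the oxygen-regulated factor, at 131 ± 14.1 TPM the highest (SD, n = 3 each). MLXIPL, the carbohydrate response factor of liver, had 9 reads in all. Of 6 genes of inositol supply 4 were at or above 1 TPM, with the inositol monophosphatases IMPA2 at 72.3 ± 3.10 TPM and IMPA1 at 26.8 ± 0.937 TPM the highest (SD, n = 3 each). ISYNA1, which makes inositol phosphate from glucose 6-phosphate, had 2.12, 0.988 and 2.39 TPM from 25, 12 and 24 reads, with replicate 2 just below 1 TPM.

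**Figure D5:**
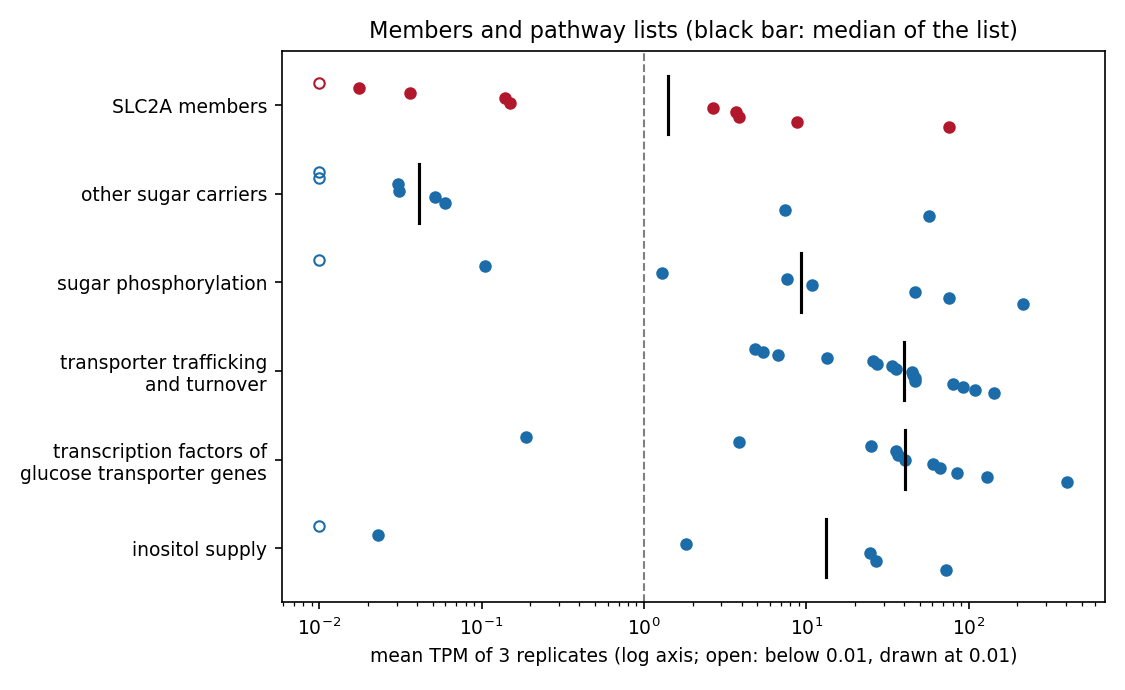
Mean TPM of 3 replicates (log axis) of the 10 SLC2A members in red and of the 49 genes of 5 pathway lists in blue, 1 point a gene, with open points for means under 0.01 TPM and black bars at the median of each list. All 16 genes of trafficking and turnover lie above the 1 TPM line, as do 5 of the 10 members and 2 of the 8 other sugar carriers. Of all protein-coding genes, 56.7% were at or above 1 TPM.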

How the data were processed

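RNA of 3 replicates was sequenced after depletion of ribosomal RNA from 300 ng of total RNA. By the methods of the study and the submitters' processing notes (fastp, STAR, MultiQC; hg38, GRCh38.p14), the authors processed the reads with Seq2science and deposited TPM for 62754 genes. Neither the release of the annotation nor the strand setting is given in the sources used here. Each replicate sums to 1000000, no column was left unused, and 54 genes were not found in GENCODE release 44.

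Reads were recovered as TPM times the length of the longest transcript, with 1 base less for each exon, divided by the smallest value above 0. All values above 0 (100%) were whole within 0.01 read, with that step taken as 1 read. Genes with at least 15 reads in all entered the chi-square test, and where 0 reads were found, 3 reads per replicate were taken as the limit. Spread was the SD of TPM or of log2(TPM + 1). Promoters were taken from RefSeq and coding sequences from GENCODE. Alternatives covered the cutoff, the scaling, the transcript length, the read minimum, the pseudocount, the summary of the replicates and leaving out each replicate.

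The members and lists were chosen with earlier results of these data known. Named are all 10 members, the 2 highest genes of each list, listed genes with replicates on both sides of 1 TPM, and the 4 protein-coding genes nearest to SLC2A1 in level. Marker genes, SLC5A1, SLC5A2, SLC5A3, SLC5A9, MLXIPL, SLC2A5, SLC2A7, TBPL1 and ENSG00000288955 are named outside this rule, with their values known. The recovery of reads and the chi-square test were tested on simulated data. The tools were matplotlib 3.10.9, scipy 1.17.1, pandas 2.3.3, numpy 2.4.6 and Python 3.11.15. One listed gene is not reported here by name.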

Additional observations from a re-analysis of the deposited data

How the results depend on the processing

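No paired analysis was possible because every sample belongs to 1 condition, so that no groups share replicate numbers, and ratios between genes were taken within each replicate. The number of members at or above 1 TPM was 5 under every alternative tried (cutoffs of 0.5 and 2 TPM, each replicate at the cutoff, rescaling to the sum of protein-coding genes, canonical transcript lengths, and without each replicate), and the number of listed genes lay between 36 and 38. The mean of SLC2A1 was 61.7 TPM with canonical lengths, a setting that divides all genes by other lengths, 86.6 TPM with rescaling, and from 71.7 to 82.0 TPM without each replicate. Its share of the members' TPM was 78.3% with canonical lengths, between 79.3% and 80.1% without each replicate, and 55.8% over all 14 SLC2A genes. Over these 14 genes its log2 ratio to the next gene was 0.96 in place of 3.15, since the next gene is then SLC2A9. This set was added after seeing the data. The ratio lay between 3.02 and 3.22 without each replicate. The median SD of log2(TPM + 1) over the members was 0.13, 0.31 with a pseudocount of 0.1, 0.21 over the 5 members at or above 1 TPM and between 0.0525 and 0.14 without each replicate, lowest without replicate 3, of which the cause was not tested. Over all matched genes at or above 1 TPM it was 0.19, and over the protein-coding genes among them 0.16. Between replicates, 2 of the 5 members tested were called, beside 54.3% of all genes tested. With scaling by the median ratio it was 1 member, beside 31.2% of all genes. Without replicates 1, 2 and 3 in turn it was 2, 2 and 0 members, beside 46.7%, 46.7% and 21.3% of all genes. The median log2 ratio of replicate 3 over the 5 members was -0.38 and -0.20 with rescaling to protein-coding genes. Of the 27 genes besides SLC2A1 that the naming rule gives, 15 moved by over 1 SD with rescaling and 14 with canonical lengths. By its construction, leaving out a replicate moves no mean of 3 by as much as 1 SD. Depth limits the 5 members below 1 TPM, for which 3 reads in a replicate stand for 0.0995 to 0.211 TPM.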
